A study of Mus musculus with 14 samples.

Results

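Rag1, Rag2 and Dntt, the 3 genes described here, were chosen by name from 21883 protein-coding genes of the mouse RefSeq annotation, and every enriched stretch of ChIP-seq signal (an island) that met one of their spans or the 100 kb on either side was listed. This gave 82 of 224064 islands. These genes, and the gene lists used further on, were chosen with earlier results of these data known. Genome-wide shares beside their counts are therefore description and not a test. The cells were bone marrow progenitors left after magnetic removal of lineage-marked cells (Lin-, named HSPCs in the labels) from C57BL/6 mice that were wild type (WT) or lacked UTX (KO), the histone demethylase encoded by Kdm6a. H3K27ac and H3K27me3 were each profiled in 2 WT and 2 KO libraries, UTX in 2 WT libraries, and 1 WT library with IgG gave the background (its label ties it to a precipitation of BCOR). 3 further samples (2 inputs and another IgG) were not analysed here. The allele, any Cre driver, and the sex and age of the mice are not given in the sources used here, nor is it stated whether libraries came from separate animals, so p-values measure the spread between libraries, which may be technical.

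RAG1 and RAG2 together form the recombinase that cuts antigen receptor genes at recombination signal sequences during V(D)J recombination, and the end joining machinery then seals the cut ends. Dntt encodes terminal deoxynucleotidyl transferase (TdT), which adds nucleotides without a template at the junctions. All 3 genes are turned on in early lymphoid progenitors and are silent in erythroid and most myeloid cells. H3K27ac marks active promoters and enhancers, and H3K27me3, which UTX can remove, marks Polycomb-silenced chromatin.

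In mm10, Rag2 lies on the plus strand of chromosome 2 (101624712 to 101632528) and Rag1 on the minus strand (101638252 to 101649532). The pair point towards each other across a gap of 5.72 kb, with starts 24.8 kb apart. Dntt lies on the plus strand of chromosome 19 (41029275 to 41059525). The promoters of the 3 genes are shown because H3K27ac at their starts differed in pattern. They run from 250 bases before to 50 bases after each annotated start, from RefSeq build GRCm38.p6: chr2:101649483-101649782 on the minus strand for Rag1, chr2:101624462-101624761 on the plus strand for Rag2, and chr19:41029025-41029324 on the plus strand for Dntt. Capitals mark matches, on either strand, to the RUNX core TGTGGT, the E-box CANNTG, the GATA site (its own letters) and the ETS core AGGAA.
Rag1: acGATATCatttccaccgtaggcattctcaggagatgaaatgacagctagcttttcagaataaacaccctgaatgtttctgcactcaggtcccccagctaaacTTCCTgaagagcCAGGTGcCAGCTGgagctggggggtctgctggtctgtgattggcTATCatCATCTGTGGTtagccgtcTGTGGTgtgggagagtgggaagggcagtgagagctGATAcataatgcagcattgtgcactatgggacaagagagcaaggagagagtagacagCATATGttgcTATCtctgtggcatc
Rag2: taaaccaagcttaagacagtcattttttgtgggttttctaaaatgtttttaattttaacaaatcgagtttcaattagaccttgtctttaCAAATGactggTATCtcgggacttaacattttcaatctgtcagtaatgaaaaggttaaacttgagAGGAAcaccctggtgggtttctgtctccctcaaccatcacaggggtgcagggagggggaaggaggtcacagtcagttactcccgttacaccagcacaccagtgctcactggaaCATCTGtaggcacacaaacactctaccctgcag
Dntt: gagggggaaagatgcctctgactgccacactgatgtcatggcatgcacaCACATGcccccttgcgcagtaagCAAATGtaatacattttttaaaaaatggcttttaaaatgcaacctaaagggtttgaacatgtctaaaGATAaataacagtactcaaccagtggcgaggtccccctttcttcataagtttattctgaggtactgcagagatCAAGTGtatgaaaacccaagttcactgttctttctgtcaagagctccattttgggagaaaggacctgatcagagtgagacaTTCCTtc

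The Rag1 promoter held 2 matches to the RUNX core, which begin 81 and 67 bases before the start, and the first of them overlaps an E-box match. Neither the Rag2 nor the Dntt promoter held that core, which 14.8% of 21005 RefSeq promoters of the same length contain. E-box matches numbered 4, 2 and 3 in Rag1, Rag2 and Dntt (69.0% of promoters hold at least 1), GATA matches 5, 1 and 1 (52.9%, with a pair in Rag1 sharing bases in GATATC), and ETS cores 1 in each (64.2%). The FOX core TGTTTAC (3.02% of promoters) and the TATA box TATAAA (12.5%) had no match. CpG dinucleotides numbered 3, 3 and 2, against a median of 13 over all promoters. These are matches of letters only and show no binding.

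Read counts in islands ranged from 9330823 to 15256696 in the H3K27ac libraries and from 2347442 to 2743508 in the H3K27me3 libraries. They came to 816567 and 1834418 for UTX and to 154029 for IgG. Levels are given as rpm, the reads of an island per 1000000 reads in all islands of its library. Islands were called in each library separately, so a library without an island has no count, and the sum over a region also moves with the length called. Changes are log2 fold changes of KO over WT from edgeR (n = 2 and 2) with p-values adjusted over all tested regions of the mark. A region, formed by merging overlapping islands, was tested where all 4 libraries of the mark had an island, and an adjusted p under 0.05 was required. All 7 stem and progenitor genes listed (Kit, Cd34, Meis1, Mecom, Gata2, Hlf, Flt3) carried H3K27ac islands in all 4 libraries. Kdm6a itself carried H3K27ac in all 4, and island lists cannot check the genotype labels.

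The 3 starts did not all share a pattern of H3K27ac. Rag1, the catalytic subunit gene, had an island at its start in both KO libraries and in neither WT library. The Rag2 start and the Dntt start carried islands in all 4 libraries, at levels that did not differ beyond the test. The regions that rose lay away from these starts: one upstream of Rag2, one upstream of Dntt, one at the start of Blnk and one inside Prr5l.

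At the Rag1 start the KO islands held 180 reads (12.2 rpm) in replicate 1 and 225 reads (20.2 rpm) in replicate 2, each over 4.2 kb. Merged, they span 101646201 to 101651200, from -1.67 to 3.33 kb relative to the Rag1 start. They were islands of middling size, since 38.8% and 48.5% of the islands of their libraries held fewer reads. No island was called there in WT. The smallest islands anywhere in the 2 WT libraries held 18 and 24 reads, which sets no upper limit on WT reads over this stretch. Of 17491 genes with a distinct start, 141 (0.806%) gained an H3K27ac island in this way, marked within 2 kb of the start in both KO and no WT library, and 1800 of 34766 merged regions (5.18%) had that pattern anywhere. Counting an absent island as 0 reads gave an edgeR adjusted p of 0.0232 over 28443 regions. That fit cannot decide whether the mark rose. The region entered it through its KO islands alone and WT was set to 0, so its direction was fixed in advance. No fold is given because the WT reads below the calling threshold are not in the files. With the replicate number as a block the edgeR adjusted p was 0.161.

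**Figure D1:**
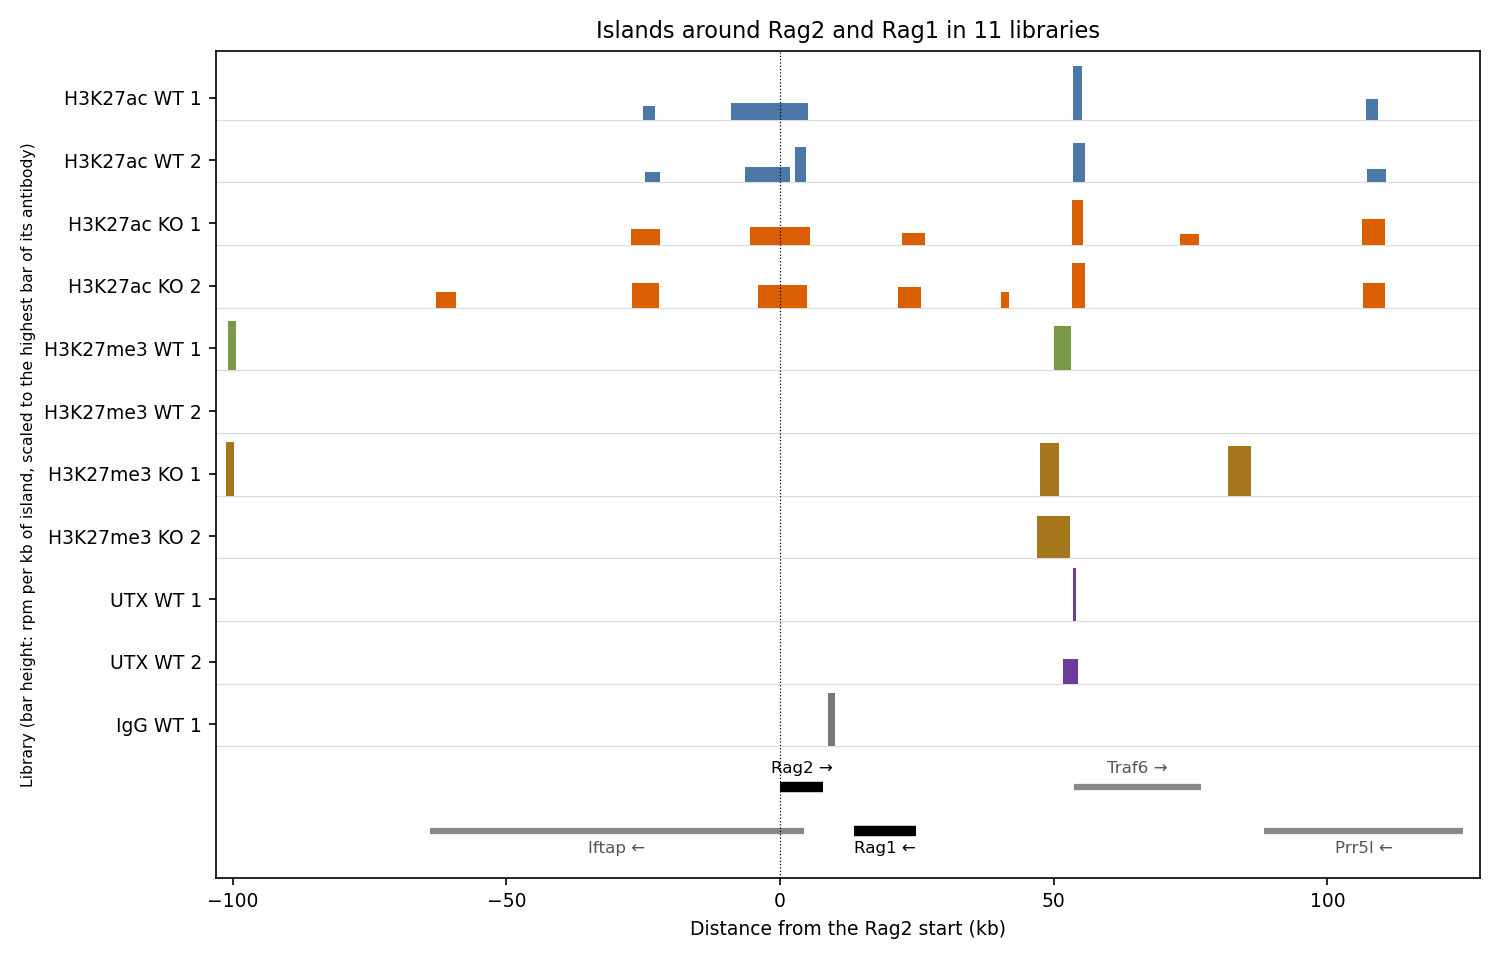
Islands in the 100 kb windows of Rag2 and Rag1 for the 11 libraries, by distance from the Rag2 start (kb). Each bar spans 1 island and its height is rpm per kb, scaled to the highest bar of the same antibody. Gene spans run below, with the direction of transcription as arrows. The bars over the Rag1 start are in KO libraries, while the bars over the Rag2 start are in all 4 H3K27ac libraries.

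Upstream of Rag2, H3K27ac rose in the region 101597401 to 101602800, which lies from -27.3 to -21.9 kb relative to the Rag2 start and inside Iftap, a neighbour gene on the minus strand. The levels were 7.07 and 7.01 rpm in WT and 20.6 and 28.6 rpm in KO, and both KO libraries lay above both WT libraries. The change was 1.68 (SE 0.248, edgeR adjusted p = 0.00366), or 3.21-fold, larger than that of 99.2% of tested regions. It stayed past the threshold with each library left out in turn (1.44 to 1.89, edgeR adjusted p at most 0.0361). The islands were also longer in KO, at 5.4 and 5.0 kb against 2.2 and 2.8 kb in WT. Per covered kb the change was 0.63 (edgeR adjusted p = 0.280), which did not pass.

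This region covers, in all 4 H3K27ac libraries, the position 23 kb upstream of Rag2 at which the B cell enhancer Erag is placed in textbooks. Of the other textbook elements, the position of D3, 8 kb upstream, was covered in WT replicate 1, where the island over the Rag2 start reached that far. In the other 3 libraries the nearest island ended 1.49 to 3.89 kb away. The position of the anti-silencer element (ASE), 73 kb upstream and best known from T cell precursors, was covered in none of the 4. The nearest island was in KO replicate 2, 10.1 kb away.

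The Rag2 start itself lay in the region 101615801 to 101630200, with 56.8 and 47.3 rpm in WT and 47.5 and 47.8 rpm in KO. The KO values fell between those of the WT libraries, and the change was -0.23 (SE 0.121, approximate 95% interval -0.47 to 0.0026, edgeR adjusted p = 0.203). The same region holds both annotated starts of Iftap (101629031 and 101621046), so its signal cannot be assigned to Rag2 alone. Per covered kb, the KO islands at the Rag1 start held 2.90 and 4.82 rpm, below the 4.32 and 5.31 rpm of the Rag2 start region in the same libraries.

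Further along chromosome 2, the start of Traf6, a ubiquitin ligase of Toll-like and TNF family receptor signalling, carried 20.1 and 20.3 rpm in WT and 21.3 and 25.4 rpm in KO (0.091, SE 0.187, edgeR adjusted p = 0.759). The region 101731001 to 101735400 inside Prr5l, whose product binds the mTORC2 complex, rose from 10.6 and 10.7 to 25.4 and 23.2 rpm (1.07, SE 0.206, edgeR adjusted p = 0.0101). That call was lost without WT replicate 1 (adjusted p = 0.0519) and per covered kb (0.49, adjusted p = 0.368). 3 further islands of the window were each seen in 1 KO library, and 18.2% of all merged regions were seen in 1 library.

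Around Dntt, a rise in H3K27ac passed the threshold upstream of the gene but not at its start. The start region, 41018601 to 41034800, held 38.4 and 35.3 rpm in WT and 43.5 and 41.3 rpm in KO. Both KO values lay above both WT values, by less than the test resolves (0.091, SE 0.130, interval of 1.96 SE -0.16 to 0.35, edgeR adjusted p = 0.649). The islands there covered 11.6 kb in each WT library and 15.4 and 14.8 kb in KO. The region upstream, 41005801 to 41017400, lies between Blnk and Dntt from -23.5 to -11.9 kb relative to the Dntt start. It held 15.2 and 7.21 rpm in WT and 31.8 and 47.5 rpm in KO, a change of 1.74 (SE 0.347, edgeR adjusted p = 0.0115) or 3.34-fold.

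The length of this upstream region changed more than its reads. Islands covered 4.0 and 1.4 kb in WT and 11.6 and 11.2 kb in KO, and per covered kb the change was -0.47 (edgeR adjusted p = 0.448), of the opposite sign and not past the threshold. Without WT replicate 2, the library with the shortest island, the change was 1.31 and the adjusted p 0.0554. With islands required in 2 libraries only, the adjusted p was 0.0723.

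Inside Dntt, from 9.33 to 11.1 kb after its start, both KO libraries had an island of 1.8 kb and neither WT library did (41038601 to 41040400). The KO islands held 114 reads (7.72 rpm) and 140 reads (12.6 rpm), and 5.18% of merged regions had this pattern. With absent islands at 0 the edgeR adjusted p was 0.0240, and 0.348 with the replicate block. As at the Rag1 start, that fit cannot decide whether the mark rose. WT replicate 1 alone had a smaller island nearby, from 6.53 kb after the start, with 36 reads.

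The neighbour upstream is Blnk, which encodes a B cell adaptor that links the pre-B cell receptor to its downstream kinases. At its start (40988801 to 41002200) H3K27ac rose from 45.8 and 34.7 to 79.9 and 97.5 rpm (1.03, SE 0.150, edgeR adjusted p = 0.00339), also without each library in turn (0.89 to 1.21, edgeR adjusted p at most 0.0301). Per covered kb the change was 0.67 (adjusted p = 0.151). Within Blnk, 40976601 to 40980200 went the other way, with islands of 10.9 and 7.73 rpm in WT and none in KO. This was a pattern of 9.28% of merged regions. With absent islands at 0 the edgeR adjusted p was 0.0237, and 0.349 with the replicate block. That fit has the same limit as at the Rag1 start, here with KO set to 0. The 1 tested region downstream of Dntt, in Tll2, did not differ beyond the test (-0.24, SE 0.247, edgeR adjusted p = 0.509).

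**Figure D2:**
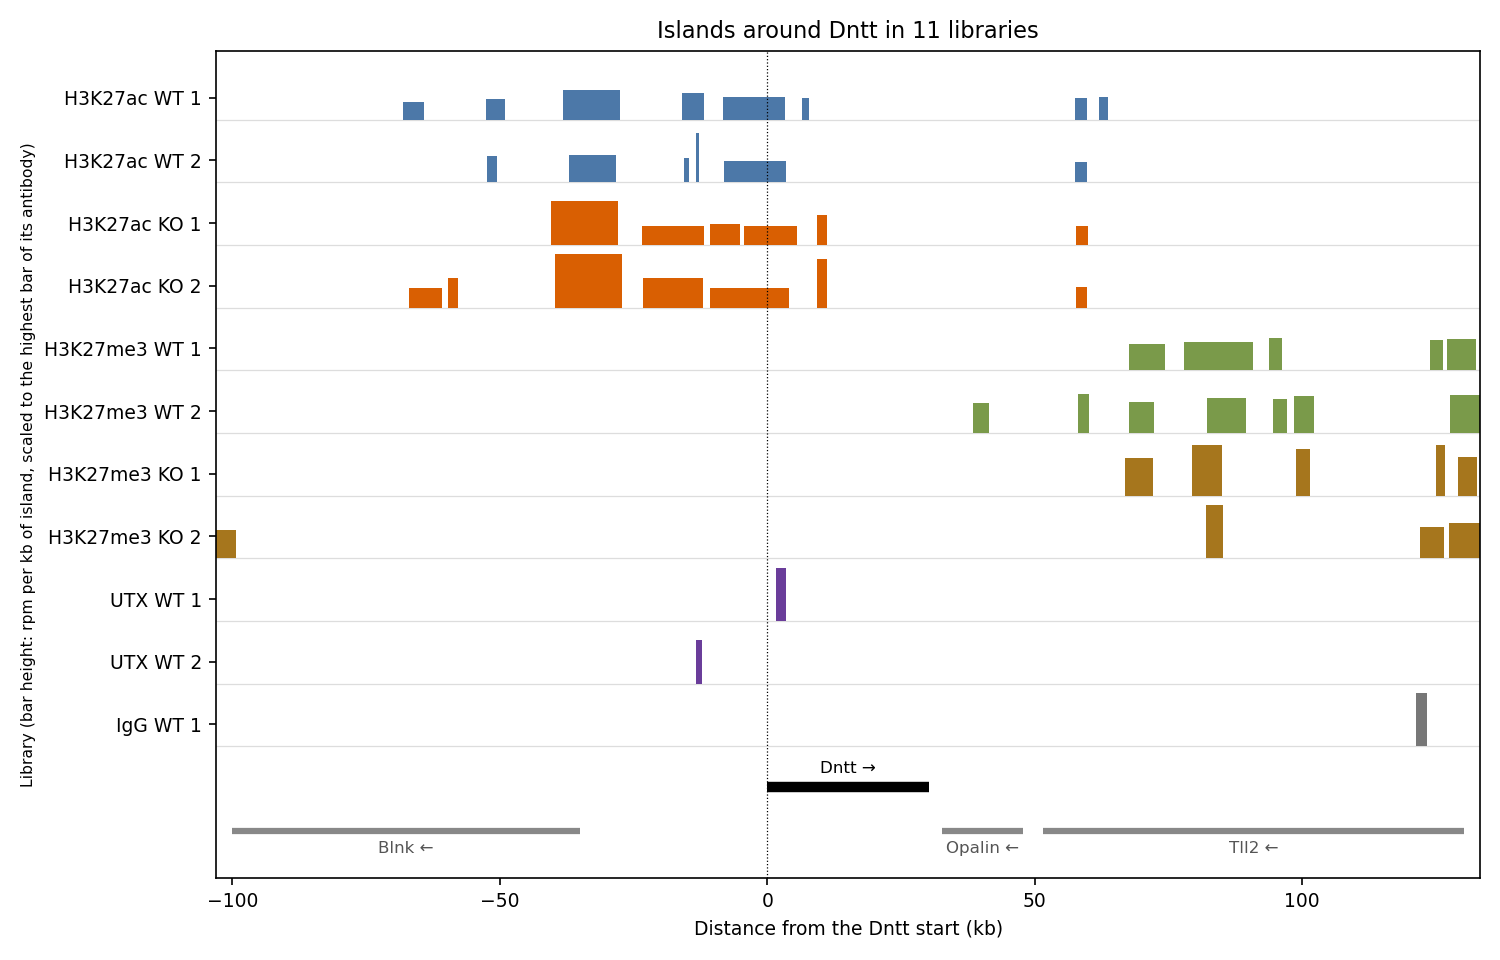
Islands in the 100 kb window of Dntt for the 11 libraries, by distance from the Dntt start (kb), drawn as for Rag2 and Rag1. In KO the H3K27ac islands upstream of Dntt cover 11.6 and 11.2 kb, against 4.0 and 1.4 kb in WT, and H3K27me3 islands lie over Tll2 beyond the gene.

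Of the 8 tested H3K27ac regions in the windows, 4 were higher and 0 lower in KO, beside 12.0% higher and 14.0% lower of 18820 regions tested genome-wide (edgeR). Their median log2 fold change was 0.56, against -0.00020 over all regions. At an unadjusted p under 0.05, and with DESeq2, the 8 regions also gave 4 higher and 0 lower. Scaling to total island reads in place of TMM raises the median of all H3K27ac regions to 0.115 and gives 3268 higher and 2069 lower regions genome-wide, against 2258 and 2631, and the same 4 regions of the windows passed. Per covered kb none of the 4 passed with edgeR (adjusted p 0.151 to 0.448).

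**Figure D3:**
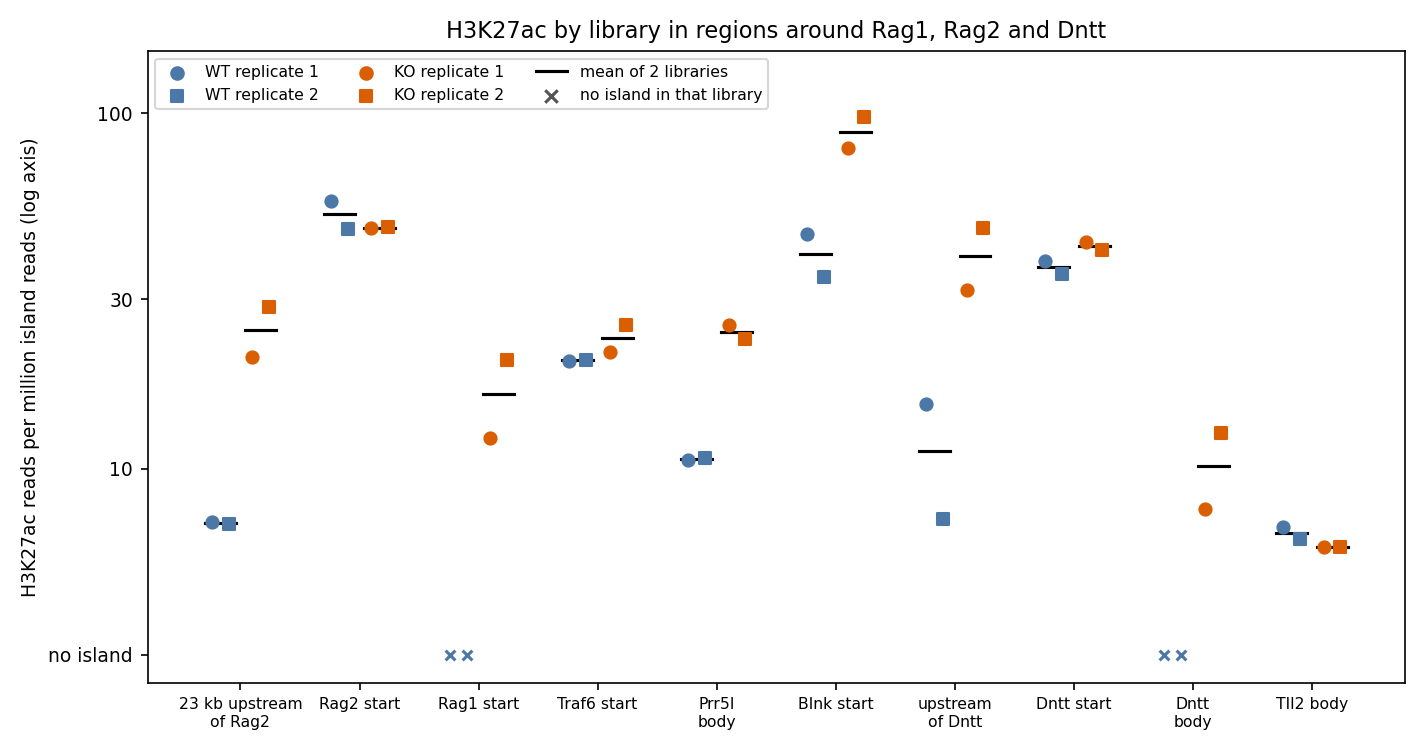
H3K27ac level (rpm, log axis) of each library in the regions named around Rag1, Rag2 and Dntt. Circles are replicate 1 and squares replicate 2, black lines are the mean of 2 libraries, and crosses at the bottom of the axis stand for no island. At the Rag2 start the KO points (47.5 and 47.8 rpm) lie between the WT points, and at the Rag1 start the WT libraries have no island.

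**Figure D4:**
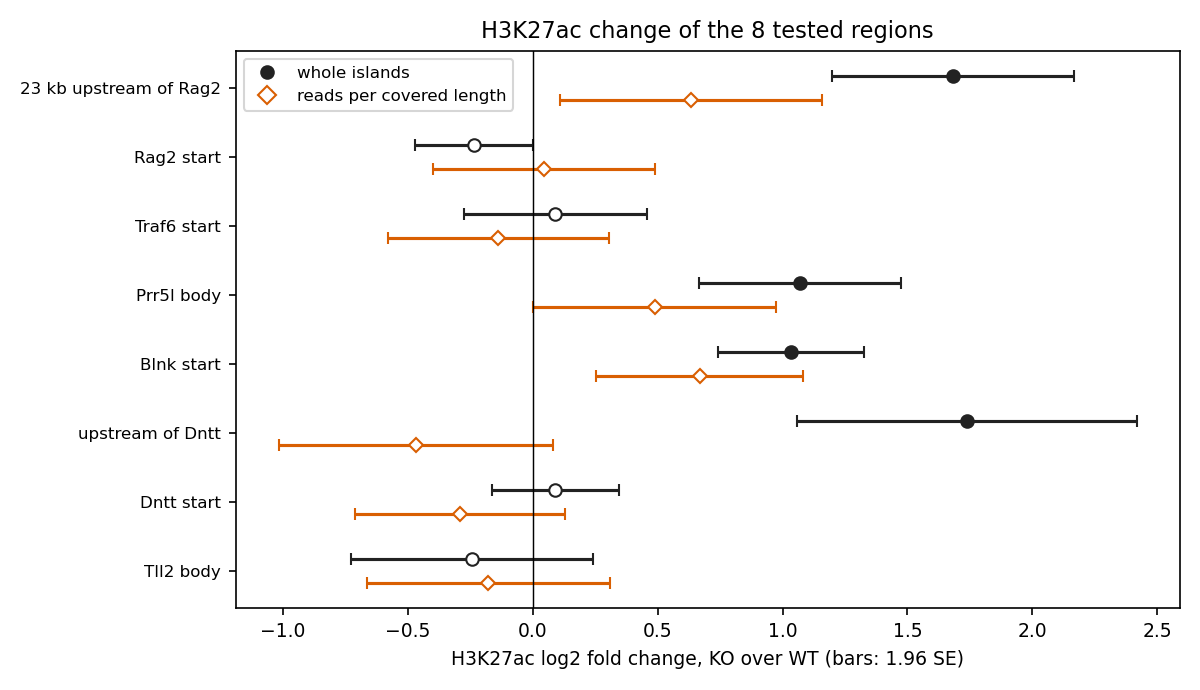
Log2 fold change of H3K27ac (KO over WT) in the 8 tested regions, with bars of 1.96 SE. Circles use the reads of whole islands and diamonds the reads per covered length, and filled symbols have an adjusted p under 0.05. The 4 filled circles lie between 1.03 and 1.74, and no diamond is filled.

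Summed over the window that Rag1 and Rag2 share island for island, H3K27ac rose from 94.6 and 85.3 to 136 and 164 rpm (0.72, SE 0.119, edgeR adjusted p = 0.0126, beside 15.6% of 18050 gene windows that were higher). The call was lost without WT replicate 2 (0.66, adjusted p = 0.0576). Islands covered 20 and 18.8 kb of the window in WT and 30.2 and 29.8 kb in KO, and per covered kb the change was 0.095 (adjusted p = 0.955). The Dntt window held 136 and 91.3 rpm in WT and 169 and 230 rpm in KO, a change of 0.80 (SE 0.230, edgeR adjusted p = 0.0511) that did not pass. It passed in 8 of 15 alternatives, and per covered kb it was 0.25 (adjusted p = 0.771). An exact permutation test of the window's rpm or covered length over 2 against 2 libraries cannot give a two-sided p below 0.333, which is what both windows gave.

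H3K27me3 was not found over the genes themselves. No island met the span of Rag1, Rag2 or Dntt, or the 2 kb around any of their starts, in any of the 4 libraries. In the chromosome 2 window WT replicate 2 had no island. An island before Traf6 (101671601 to 101677800) was called in WT replicate 1 (23.3 rpm) and in KO replicates 1 and 2 (31.5 and 43.9 rpm). WT replicate 1 and KO replicate 1 had another at -99.5 kb from the Rag2 start, and KO replicate 1 one between Traf6 and Prr5l. None of these 3 regions had islands in all 4 libraries, and no fold is given against a library without an island.

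In the Dntt window H3K27me3 lay mainly over Tll2, a metalloproteinase gene, 58.1 kb and more from the Dntt start. The region 41107201 to 41120200 held 75.5 and 51.7 rpm in WT and 58.8 and 35.1 rpm in KO (-0.57, SE 0.425, edgeR adjusted p = 0.780). The region 41156401 to 41176200 held 93.3 and 98.5 rpm in WT and 46.0 and 113 rpm in KO (-0.38, SE 0.400, edgeR adjusted p = 0.851). WT and KO overlapped in both. Between them, 41123201 to 41126400 had islands in both WT libraries (16.0 and 18.3 rpm) and in neither KO library, as did 6.5% of merged H3K27me3 regions. With edgeR, 1 of 6771 tested H3K27me3 regions differed genome-wide (0.0148%), against 16 higher and 17 lower with DESeq2 and 517 at an unadjusted p under 0.05. The sum over the Dntt window was 177 and 212 rpm in WT and 170 and 204 rpm in KO (-0.064, SE 0.224, edgeR adjusted p = 0.969). Of 16897 gene windows 0.0% were called higher or lower with edgeR, with 1271 at an unadjusted p under 0.05, and DESeq2 called 433 higher and 734 lower.

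UTX was not found at Rag1 or Rag2 in WT cells. In their window the UTX islands lay at the Traf6 start, with 24 reads (29.4 rpm) in replicate 1 and 116 reads (63.2 rpm) in replicate 2. At Dntt the replicates differed: replicate 1 had an island of 48 reads (58.8 rpm) inside the gene, 1.73 kb after its start, and replicate 2 had one of 49 reads (26.7 rpm) at -12.3 kb, in the region upstream where H3K27ac rose. So of the 8 tested H3K27ac regions only that at Traf6 met islands of both UTX libraries, which 38.4% of H3K27ac regions did genome-wide, and 3 met at least 1 (61.4%). The IgG library had an island of 33 reads between Rag2 and Rag1 and one of 40 reads in Tll2. None of these overlapped a UTX island.

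The end joining factors act with the 3 genes in V(D)J recombination. Of 14 other listed genes, each with a tested H3K27ac region within 2 kb of its span, 3 rose and 1 fell (median 0.041). Over all tested regions 12.0% were higher and 14.0% lower, with a median of -0.00020, so the calls in this list came at about the share found genome-wide. Polm, a DNA polymerase of the same family as TdT, rose from 22.2 and 13.8 to 39.7 and 55.4 rpm (1.30, SE 0.25, edgeR adjusted p = 0.010). Lig4, the ligase that seals the ends, rose by 0.65 (adjusted p = 0.00953) and Paxx, a scaffold of the Ku complex, by 0.29 (adjusted p = 0.0412). Prkdc, encoding the kinase DNA-PKcs, fell by 0.39 on the log2 scale (adjusted p = 0.038). Of these 4 calls Paxx and Prkdc were lost with DESeq2 and with any 1 library left out, Polm was lost without WT replicate 2 (adjusted p = 0.0607), Lig4 without KO replicate 2 (0.0586), and 0 passed per covered kb with edgeR. The regions of Xrcc5 (-0.45), Xrcc6 (0.084), Xrcc4 (-0.14) and Dclre1c, the Artemis nuclease gene (-0.11), did not pass. Islands summed within 2 kb of the gene span went the other way for Xrcc5 and Dclre1c. Xrcc5 held 25.9 and 47.7 rpm in WT and 70.0 and 63.7 rpm in KO. Dclre1c held 130 and 120 rpm in WT and 145 and 147 rpm in KO.

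Among 19 listed regulators of Rag transcription, 16 had a tested region, of which 8 rose and 3 fell (median 0.27), beside the 12.0% higher and 14.0% lower of all tested regions and their median of -0.00020. The regions that rose included Ikzf3, encoding Aiolos, from 77.7 and 71.2 to 255 and 291 rpm (1.76, SE 0.0893, edgeR adjusted p = 0.000191), Pax5 from 6.32 and 8.59 to 21.9 and 30.5 rpm (1.67, adjusted p = 0.00564), and Ebf1 from 11.3 and 15.4 to 23.4 and 33.4 rpm (0.96, adjusted p = 0.037). Foxo1, an activator that binds Erag in B cell progenitors, rose from 25.2 and 21.1 to 46.1 and 53.4 rpm (0.99, adjusted p = 0.00429). Foxp1 (0.60), the chromatin organiser gene Satb1 (0.82), Spi1 (0.40), which encodes PU.1, and Id2 (2.16), an inhibitor of E proteins, rose as well. Gfi1b, a repressor of Rag transcription best known from erythroid cells, fell from 291 and 294 to 80.7 and 111 rpm (-1.73, SE 0.139, edgeR adjusted p = 0.000488).

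Bcl11a (-0.92), needed for early B cells, and Ikzf1 (-0.37), encoding Ikaros, fell. Ebf1 lost its call with 3 of 4 libraries left out in turn (adjusted p up to 0.173), Ikzf1 with 2 of 4 (up to 0.108) and Spi1 without WT replicate 1 (0.0548). Per covered kb 1 of the 8 rises (Ikzf3) and all 3 falls passed with edgeR. Gata3, a T cell factor, held 23.3 and 22.7 rpm in WT and 19.6 and 7.91 rpm in KO (-0.83, adjusted p = 0.166). That value rested on which KO library was used, at -1.66 without KO replicate 1 (adjusted p = 0.0062) and -0.33 without KO replicate 2 (0.456), and it also passed with the replicate block (-0.97, 0.0427). None of the H3K27me3 regions of these lists passed with edgeR.

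Markers of other cells moved beside these values. In bulk chromatin, more cells with a mark and more mark per cell cannot be told apart. These counts stand beside the 12.0% higher and 14.0% lower of all tested regions. That share cannot test them, because the lists were chosen with earlier results of these data known. Of 10 tested regions at B lineage genes 8 rose and 0 fell (median 1.20), among them Pou2af1 (9.97 and 12.5 to 47.1 and 81.6 rpm) and Il7r. The 8 include the region at the Blnk start, which was also counted in the Dntt window. Summed over the genes of the list, with an island near more than 1 gene counted for each, H3K27ac was 485 to 517 rpm in WT and 885 to 1119 rpm in KO, and Cr2, a marker of mature B cells, had no island. Of 5 T lineage regions 2 rose (Ptcra, and that shared by Cd3d and Cd3g), the sum was 220 to 246 rpm in WT and 308 to 384 rpm in KO, and Cd3e, Cd4 and Cd8a had no island. The 7 tested erythroid regions fell (median -1.78), and 6 of 7 stem and progenitor regions fell (median -0.68). Of 5 granulocyte and monocyte regions 1, at Cebpe, rose and 0 fell (median -0.15). Islands in both KO libraries and no WT library were seen in 5.18% of merged regions, a unit unlike the gene spans used next. Among untested genes of the granulocyte and monocyte list, some were singled out after their values were seen. Within 2 kb of their spans the neutrophil granule genes Ngp and Camp and the calprotectin subunit gene S100a9 had that pattern. They held 22.4 and 21.4 rpm, 11.9 and 10.7 rpm, and 23.3 and 13.8 rpm, and S100a8 had an island in KO replicate 1 alone (19.1 rpm). The share of all gene spans with that pattern was not computed. Tested granule genes of the list were not called: Mpo (0.12), Ltf (-0.21), and Elane and Prtn3, which share a region (-0.24). The sums were 1094 to 1210 rpm in WT and 382 to 418 rpm in KO for the erythroid list, 1144 to 1206 and 724 to 929 rpm for the stem and progenitor list, and 1266 to 1320 and 1480 to 1667 rpm for the granulocyte and monocyte list. With each library left out in turn, 7 to 8 B lineage and 7 erythroid regions kept their call, while the T lineage counts were 0 to 1 (0 without either WT library or KO replicate 1) and the stem and progenitor calls kept were 1 (without WT replicate 2) to 6. Per covered kb with edgeR, 2 of 8 B lineage and 3 of 7 erythroid calls were kept. For T lineage it was 0 of 2, for stem and progenitor genes 0 of 6, and the 1 granulocyte and monocyte call was kept. With no filter on low counts, 2 of 6 stem and progenitor and 1 of 2 T lineage calls were kept. The part of a changed mix of cells in the values at Rag1, Rag2 and Dntt was not tested.

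**Figure D5:**
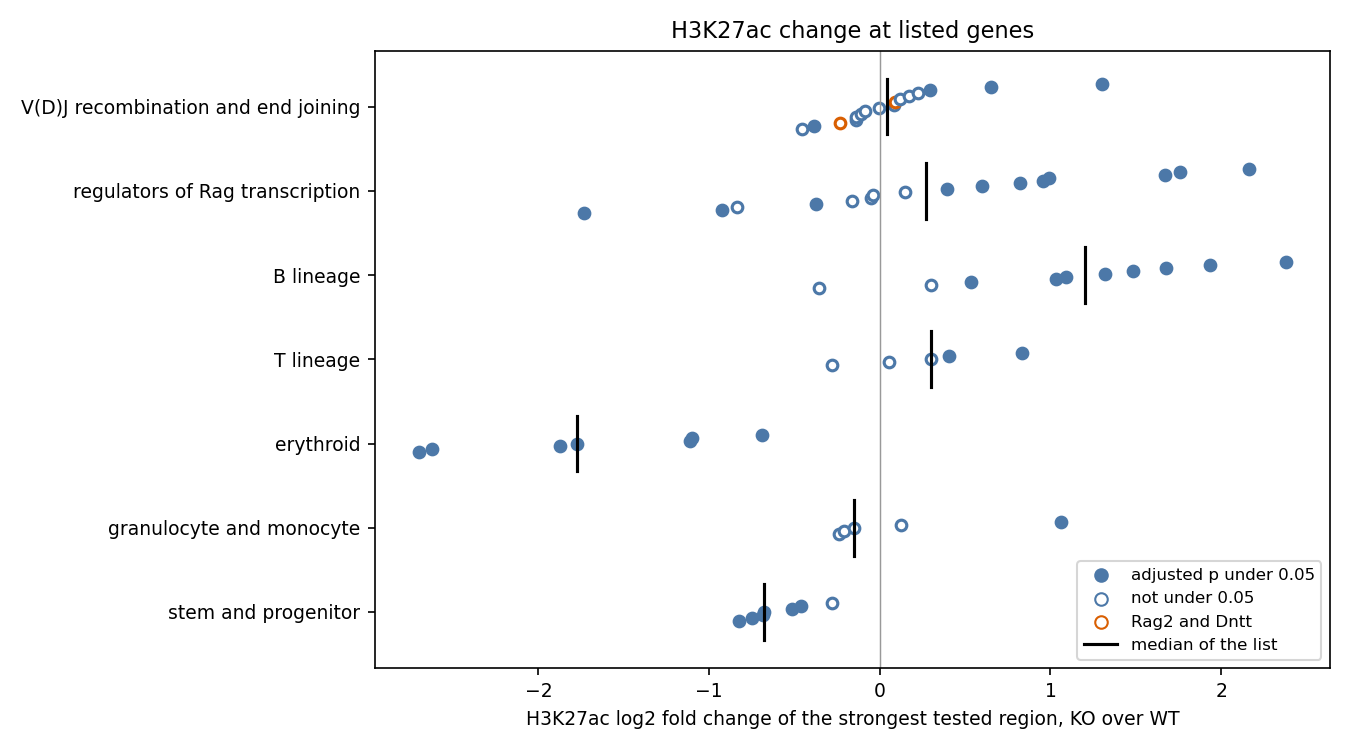
Log2 fold change of H3K27ac (KO over WT) at the strongest tested region of each listed gene, by list. Filled points have an edgeR adjusted p under 0.05, black lines are medians, and orange marks Rag2 and Dntt. Both lie near 0 (-0.23 and 0.091), while the B lineage median is 1.20 and the erythroid median -1.78.

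The genes most like each member across the 11 libraries were found by the Euclidean distance of log2(rpm + 0.5), using islands within 2 kb of the gene span, among 17386 genes. For Rag1 they were Fetub, Gpr182, 1700019A02Rik and Fxyd4 (distance 0.380 to 0.489), all 4 with H3K27ac in the KO libraries alone, at 12.6 to 16.5 rpm. For Dntt they were Ccdc127, Mysm1, Alg12, Dcaf15 and Pam16 (0.349 to 0.462), which share H3K27ac in all 4 libraries and a UTX island in replicate 1. For Rag2 they were Enpp6, A1cf, Ect2l, Btbd16 and Spg21 (0.620 to 1.20), whose likeness includes an IgG island. None of these 4 genes near Rag1 by this measure was in the gene lists, and the distances are a description over shared libraries.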

How the data were processed

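The members and gene lists were chosen with earlier results of these data known. Per the submitters' processing notes, islands were called with SICER on mouse build mm10. The aligner, version, gap, threshold and control are not given in the sources used here. The values deposited are counts of reads per island, as whole numbers, from islands called per library, and reads outside islands were not used here. Widths were multiples of 200 bp. Counts on chromosomes 1 to 19, X and Y were used as deposited.

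Gene spans, strands and starts came from NCBI RefSeq GRCm38.p6, the assembly of mm10, and exons were not used. For each mark, islands that overlapped between its 4 libraries became 1 region. Where all 4 had an island, the region's counts entered edgeR's quasi-likelihood test (glmQLFit, glmQLFTest, version 4.0.16 under R 4.3.3) after TMM scaling, with two-sided p-values adjusted over all regions by Benjamini-Hochberg and a threshold of 0.05. Island reads summed over each protein-coding gene span plus 100 kb on either side were tested alike where the mean was at least 10 reads. Standard errors come from the F statistic, and intervals of 1.96 SE are narrower than 95% intervals of that test would be. Groups follow the labels, with WT and KO compared within a mark. Scripts were tested on simulated counts with known changes in fixed regions and windows, which leave out island calling and changes of island length. Of 2-fold changes, 76% were recovered in H3K27ac regions and 90% in H3K27ac windows. For H3K27me3 it was 35% in regions and 11% in windows, so an H3K27me3 change that did not pass may still exist. Named genes are the 3 members, the genes in their windows, listed genes with a tested region, and the 5 nearest genes per member, of which 1 is not reported here. A listed gene is represented by its strongest tested region. Alternatives were DESeq2 1.42.0, other scaling, filters and window sizes, a replicate block, a stricter island threshold, reads per covered length and leaving out each library. Intervals cover counting and library spread as modelled, and no interval covers island calling.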

Additional observations from a re-analysis of the deposited data

How the results depend on the processing

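The rise 23 kb upstream of Rag2 stayed past the threshold in 12 of 13 alternatives, and that upstream of Dntt in 9 of 13. Reads per covered length gave 0.63 at the first (edgeR adjusted p = 0.280) and -0.47 at the second, which otherwise missed the threshold with no filter on low counts (1.74, adjusted p = 0.0795), with islands in at least 2 libraries (1.72, adjusted p = 0.0723) and without WT replicate 2 (1.31 to 2.31 over the 4 libraries left out). Signs also turned per covered length at the Rag2 start (0.043), the Dntt start (-0.29), the Traf6 start (-0.14, and -0.023 to 0.20 with a library left out), Lig4 (-0.14), Prkdc (0.13), Polm (-0.16), Ebf1 (-0.62) and both tested H3K27me3 regions (0.61 and 0.083, the latter -1.19 to 0.13 with a library left out). The cause was not tested, beyond that the covered length entered that fit. The shared Rag1 and Rag2 H3K27ac window sum fell to 0.095 per covered length and missed the threshold without WT replicate 2 (0.59 to 0.84 over the libraries left out). For Rag2 it was 0.51 with windows of 50 kb (adjusted p = 0.0514) and -0.17 within 2 kb of the gene. The Dntt window sum passed with DESeq2 (0.79), total scaling (0.81), at least 50 reads (0.80), windows of 50 kb (0.82) and 200 kb (0.38), reads shared out by overlap (0.80), and without WT replicate 1 or KO replicate 1 (0.55 to 1.09 over the libraries left out). Its H3K27me3 sum was 0.32 per covered length and -0.21 to 0.074 with a library left out. For island numbers and lengths, windows of 200 kb gave KO minus WT differences of 0.0 H3K27ac islands for Rag1 and Rag2 and -2.0 for Dntt, H3K27me3 lengths of 15.8 and -25.6 kb, -3.5 H3K27me3 islands for Dntt, and 5 and 7 UTX islands. With windows of 50 kb the H3K27ac length difference of Rag1 and Rag2 was 7.5 kb.

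Genome-wide H3K27ac counts of higher and lower regions were 79 and 259 per covered length, 1227 to 1392 and 1369 to 1907 with a library left out, and the lower count was 3988 with no filter and 5225 with islands in at least 2 libraries. Window counts were 164 and 123 per covered length, 988 and 1206 within 2 kb of genes, 1336 to 1871 and 1621 to 2378 with a library left out, and 4301 higher with DESeq2. H3K27me3 regions were 16 and 17 with DESeq2, 82 and 195 with no filter, 9 higher with total scaling, 3 higher per covered length, 0 to 1 higher and 0 to 6 lower with a library left out, and 0 lower with at least 50 reads, islands in at least 2 libraries, merging within 1 kb or the replicate block. H3K27me3 windows were 433 and 734 with DESeq2 and 32 and 1 per covered length. The replicate block gave 2615 higher and 2883 lower H3K27ac regions and 2386 and 3076 windows, and changed no call of the 8 tested regions. Regions with islands in 1 genotype only were fitted across settings after seeing the data, with absent islands at 0. With the block their edgeR adjusted p was 0.161 at Rag1, 0.348 in Dntt and 0.349 in Blnk. They were under 0.05 with DESeq2, total scaling and no filter, but not in every fit with a library left out. The absent islands fixed the direction in each of these fits, so none of them decides a change. Libraries with the same number did not deviate together (correlation 0.0456 over H3K27ac regions and -0.0517 over H3K27me3 regions), so the numbers were not taken as pairs. Sites below the calling threshold cannot be seen, and island reads were fewer for H3K27me3, UTX and IgG than for H3K27ac.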
